A study of Rattus norvegicus with 17 samples.

Results

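The genes described here are 9 markers of Langerhans cells and dendritic cells in the MG of the rat, chosen by name and all present among the 17251 genes of the deposited table: Cd207, Epcam, Cd80, Cd86, Itgax, Flt3, Zbtb46, Batf3 and Cd83. The transcriptome was measured in 17 female rats of 10 to 12 weeks on a Sprague-Dawley background, of which 9 were controls (4 WT and 5 P1.hMR) and 8 were exposed to UVB (3 WT and 5 P1.hMR). The P1.hMR line carries the human MR gene under its proximal P1 promoter, which according to the study's methods drives the receptor in every tissue that expresses MR and at a strength that varies by organ, so the transgene is not restricted to immune cells. WT rats were littermates without the transgene. In the UVB groups the eyelids were irradiated on 5 days before the glands were dissected, and the control groups received no irradiation. The comparisons ask how UVB changed these markers in each genotype and whether MR overexpression altered them with or without UVB.

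Langerhans cells are the dendritic cells of the epidermis and other stratified epithelia. They carry langerin, encoded by Cd207, are held among keratinocytes by adhesion molecules, take up antigen and migrate to the draining lymph node, and UVB is known to deplete them from skin. Conventional dendritic cells of the connective tissue depend on the growth factor receptor encoded by Flt3, and both kinds show CD80 and CD86, the ligands of CD28 and CTLA-4, to T cells. None of the 9 genes marks one cell type alone in whole tissue. For example, Epcam is abundant in glandular epithelium, Zbtb46 is also expressed by endothelium, and Itgax, Cd86 and Cd83 are shared with macrophages, lymphocytes or both. Which cells carried the RNA of each of the 9 genes, Cd207, Cd80, Flt3 and Batf3 included, was not measured.

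Values are TPM, a level scaled for transcript length and for the total of the library, and fold changes are differences on log2(TPM + 1), where the change of a gene near 1 TPM is understated. A gene was called when limma gave a Benjamini-Hochberg adjusted p under 0.05 across the 13105 genes tested together with an absolute log2 fold change of 0.5 or more. The markers and the gene lists beside them were chosen with earlier results of these data known, so counts within a list are descriptions. In bulk tissue, fewer cells of a type and less RNA per cell cannot be told apart. The human transgene was listed at 0 TPM in all 7 WT rats and at 5.31 to 9.31 TPM in all 10 P1.hMR rats. The 12 meibomian gland genes summed to between 44356 and 59754 TPM per rat, against 10585 to 16030 TPM for the epidermal genes and 1866 to 4372 TPM for the genes of eyelid muscle. Transcripts of eyelid muscle were thus present beside those of the gland. The epidermal list includes Krt14 and Krt10, whose proteins the study stained in the gland, so its sum does not separate epidermis from gland.

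The sequences before the transcription start are shown for Cd207 and Epcam, which were lower in every UVB rat, for Cd86, and for Cd80 and Flt3, which rose, as given in the RefSeq promoter table (assembly GRCr8, 250 bases ending at the start, read 5′ to 3′ on the gene's strand). They are Cd207 (chr4:117719192-117719441, minus strand), Epcam (chr6:12649679-12649928, minus strand), Cd86 (chr11:77669031-77669280, plus strand), Cd80 (chr11:75797541-75797790, minus strand) and Flt3 (chr12:12659785-12660034, plus strand). Capitals mark matches, on either strand, to the motifs searched.
Cd207: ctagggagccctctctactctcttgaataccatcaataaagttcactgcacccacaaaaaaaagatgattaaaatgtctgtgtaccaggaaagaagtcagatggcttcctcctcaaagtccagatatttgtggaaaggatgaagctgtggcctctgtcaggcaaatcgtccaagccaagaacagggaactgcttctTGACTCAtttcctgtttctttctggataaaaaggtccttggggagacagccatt
Epcam: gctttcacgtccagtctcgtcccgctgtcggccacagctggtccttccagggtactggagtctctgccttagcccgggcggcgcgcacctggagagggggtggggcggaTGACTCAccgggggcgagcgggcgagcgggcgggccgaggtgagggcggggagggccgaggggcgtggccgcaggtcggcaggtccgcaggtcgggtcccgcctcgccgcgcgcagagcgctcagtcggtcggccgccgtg
Cd86: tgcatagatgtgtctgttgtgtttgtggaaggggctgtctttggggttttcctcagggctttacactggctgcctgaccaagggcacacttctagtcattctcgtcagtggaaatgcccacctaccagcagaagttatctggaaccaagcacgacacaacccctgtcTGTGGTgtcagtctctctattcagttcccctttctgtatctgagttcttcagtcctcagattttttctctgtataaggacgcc
Cd80: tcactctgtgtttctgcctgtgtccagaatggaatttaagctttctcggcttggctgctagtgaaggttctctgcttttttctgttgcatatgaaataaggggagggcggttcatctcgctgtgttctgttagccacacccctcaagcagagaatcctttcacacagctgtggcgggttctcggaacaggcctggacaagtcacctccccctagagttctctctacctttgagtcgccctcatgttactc
Flt3: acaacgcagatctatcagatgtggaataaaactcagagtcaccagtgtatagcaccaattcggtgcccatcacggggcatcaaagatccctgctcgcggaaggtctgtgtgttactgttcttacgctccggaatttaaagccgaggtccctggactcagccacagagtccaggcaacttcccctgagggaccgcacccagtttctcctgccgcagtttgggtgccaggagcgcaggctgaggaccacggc
The capitals are TGANTCA, the AP-1 motif, at base -54 of Cd207 and -141 of Epcam, counted from the start site, and TGTGGT, the Runx motif, at -83 of Cd86. All 9 markers had a window, and Cd80 had 2, of which the one lying farther upstream is shown. The AP-1 motif was also found in Itgax at -56, so that 3 of the 9 markers held it, against 6.34% of all 33469 windows. The Runx motif was found in 14.5% of all windows and was held by 1 marker. The E-box CACGTG was found in Batf3 (5.59% of all windows) and TATAAA on the reverse strand of Zbtb46 (12.9%), and none of the motifs was found in Flt3, Cd83 or either window of Cd80. No match overlapped another. These matches describe letters in the window and were not tested for binding.

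UVB moved the markers in opposite directions. Cd207 fell in both genotypes, Cd80 and Flt3 rose when both genotypes were averaged, Epcam, Cd86 and Cd83 were lower by amounts under the fold threshold, and Itgax, Zbtb46 and Batf3 did not pass the test. In WT rats 2 of the 9 markers were called, both lower (Cd207 and Cd86), where 7.91% of all tested genes were called (3.92% higher, 3.98% lower). In P1.hMR rats 3 were called, Cd207 lower and Cd80 and Flt3 higher, where 10.8% of all genes were called (5.05% higher, 5.71% lower). These 3 were also called with the genotypes averaged, where the share of all genes was 9.48% (4.6% higher, 4.88% lower). With no fold threshold 6 of the 9 passed in the average, beside 47.2% of all genes. The 9 markers had a median log2 fold change of -0.21 with UVB in WT and -0.13 in P1.hMR, against 0.01 and -0.02 over all tested genes. All 9 passed the filter on low values, but 3 did so only through the groups in which they were higher. The 4 rats with 1 TPM of Cd80 were all UVB P1.hMR, 7 of the 8 rats with 1 TPM of Flt3 were UVB rats, and the 3 rats with 1 TPM of Batf3 were all P1.hMR. Without any filter the averaged UVB changes of Cd80 (limma adjusted p = 3.82e-05) and Flt3 (limma adjusted p = 0.00087) were still called.

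**Figure D1:**
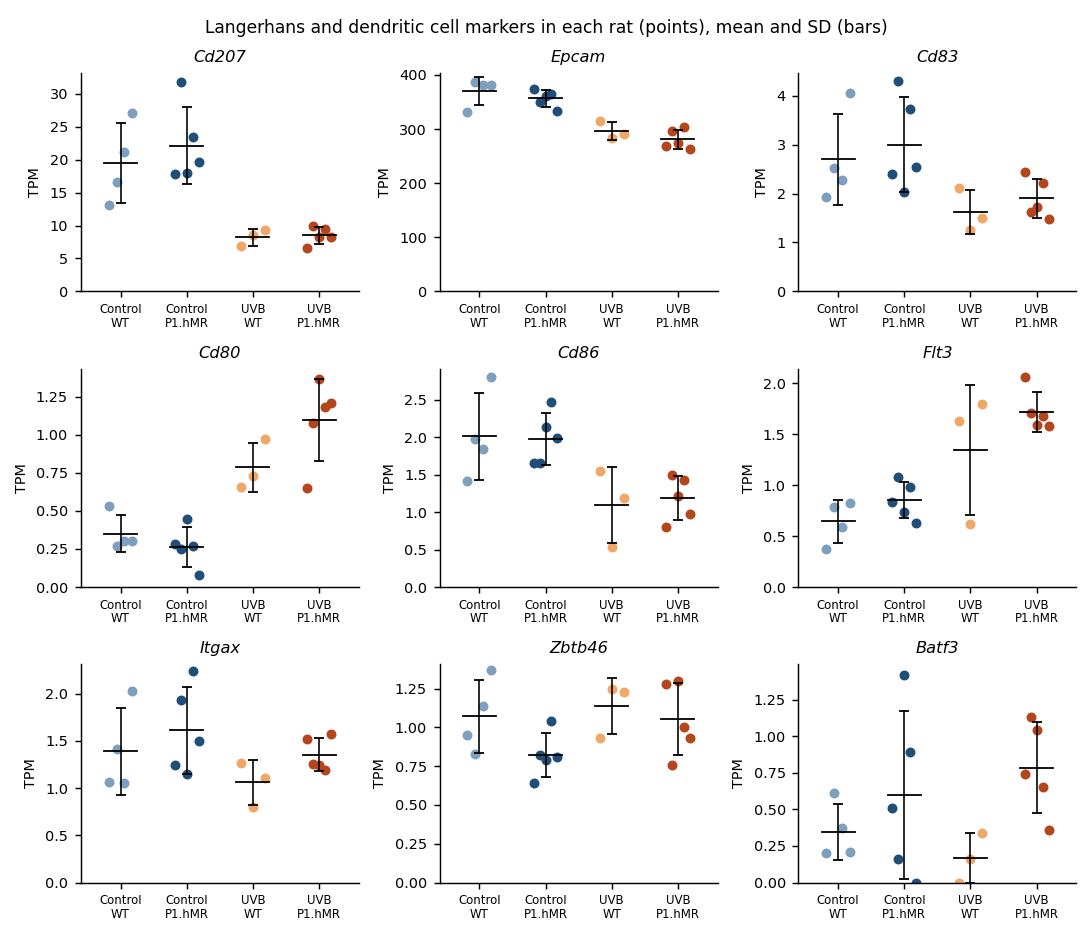
Level of each marker in TPM (vertical axis, from 0) in every rat (points) of the 4 groups, with the mean (line) and SD (bars). Cd207 and Epcam lie lower and Cd80 higher in all 8 UVB rats than in any of the 9 control rats, while Itgax, Zbtb46 and Batf3 overlap between control and UVB.

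Cd207 encodes langerin, the lectin that forms the Birbeck granules of Langerhans cells. Control WT rats had 13.1, 16.6, 21.1 and 27.1 TPM of it, and Control P1.hMR rats had 17.9, 31.8, 17.9, 23.4 and 19.6 TPM. After UVB it was at 6.83, 8.60 and 9.30 TPM in WT and at 6.66, 9.86, 8.30, 9.52 and 8.28 TPM in the P1.hMR rats. Every UVB rat was below every control rat, and the UVB rats lay closer together than the controls did. The mean was 20.9 ± 5.73 TPM (SD, n = 9) in control rats and 2.49-fold lower after UVB, at 8.42 ± 1.18 TPM (SD, n = 8). The log2 fold change was -1.11 (SE 0.21, limma adjusted p = 0.00217) in WT and -1.26 (SE 0.18, limma adjusted p = 5.63e-05) in P1.hMR rats. Exact permutation of rats gave two-sided p = 0.0571 in WT, where 3 rats against 4 allow no p below 0.0286, 0.00794 in P1.hMR rats, the smallest that 5 against 5 can give, and 0.000227 with treatment permuted within each genotype. Over all 17 rats, UVB and control values did not overlap for 3 of the 9 markers, of which Cd207 and Epcam were lower and Cd80 was higher, and of all tested genes 5.33% were lower and 5.51% higher in this way.

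Epcam encodes an adhesion molecule that Langerhans cells share with simple and glandular epithelia, and it was by far the most abundant of the 9, at 332, 387, 382 and 381 TPM in Control WT rats and 374, 350, 361, 365 and 332 TPM in Control P1.hMR rats. In UVB rats it was at 315, 284 and 290 TPM in WT and at 269, 296, 275, 303 and 263 TPM in P1.hMR. The groups did not overlap, yet the step was small. Its log2 fold change averaged over genotypes was -0.33 (95% interval -0.42 to -0.24, limma adjusted p = 1.14e-05), which passed the adjusted p and stayed under the fold threshold. Among 10 tested genes of simple and glandular epithelium, 3 fell (Cldn7 by 0.80, Krt18 by 0.75 and Krt7 by 0.61 on the log2 scale), beside 4.88% of all genes. The value for Krt18 was -1.29 in P1.hMR (limma adjusted p = 0.00343) and -0.21 in WT rats (limma adjusted p = 0.723). The interaction of genotype and UVB was not called for Krt18. None of the 10 rose, and the median log2 fold change was -0.29, close to that of Epcam. The summed level of this list was 1370 to 1564 TPM in control and 1244 to 1395 TPM in UVB rats, and its part in the Epcam result was not tested. How much of the Epcam RNA came from Langerhans cells was not measured.

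Cd80 and Cd86 encode the costimulatory ligands that deliver the second signal to T cells, and they moved apart. Cd80 was at 0.53, 0.27, 0.30 and 0.30 TPM in Control WT and at 0.28, 0.25, 0.45, 0.27 and 0.08 TPM in Control P1.hMR rats. After UVB it reached 0.66, 0.73 and 0.97 TPM in WT and 0.65, 1.08, 1.37, 1.18 and 1.21 TPM in P1.hMR rats. All UVB rats were above all control rats at a level near or under 1 TPM, where TPM written with 2 decimals gives a coarse value. The log2 fold change was 0.72 (SE 0.11, limma adjusted p = 0.000115) in P1.hMR rats and 0.40 (SE 0.13, limma adjusted p = 0.0412) in WT rats, the latter under the fold threshold. The difference between the 2 responses was 0.32 (95% interval -0.05 to 0.69) and did not pass either test (limma adjusted p = 0.758, exact permutation p = 0.0668).

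Cd86 took the other direction. It was at 1.42, 1.98, 1.84 and 2.80 TPM in Control WT and at 1.65, 1.65, 2.13, 2.47 and 1.99 TPM in Control P1.hMR rats. In UVB rats it was at 1.55, 0.54 and 1.19 TPM in WT and at 0.80, 1.5, 1.22, 1.43 and 0.98 TPM in P1.hMR. The P1.hMR groups did not overlap, whereas among WT rats the highest UVB value lay above the lowest control value. The log2 fold change was -0.54 (SE 0.18, limma adjusted p = 0.0419) in WT, which was called, and -0.45 (SE 0.15, limma adjusted p = 0.0239) in P1.hMR, which was not. The WT call was lost when any 1 of 8 rats was left out (Control WT rats 2, 3 and 4, Control P1.hMR rats 3 and 5, UVB WT rats 2 and 3, and UVB P1.hMR rat 3), with values from -0.58 to -0.33, the latter without UVB WT rat 2. Averaged over genotypes the change was -0.49 (95% interval -0.74 to -0.25, limma adjusted p = 0.00242, exact permutation p = 0.000794), just under the fold threshold.

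The balance of both ligands differed between the treatments in every rat, a ratio that was chosen after the values were seen and is given as a description. Cd86 stood at a median of 6.60 times the TPM of Cd80 in the 9 control rats, with a range of 2.68 to 24.9. In the 8 UVB rats the median ratio was 1.22, with a range of 0.74 to 2.35, so the lowest control rat still had a higher ratio than the highest UVB rat. The widest ratio came from the control rat with 0.08 TPM of Cd80, the lowest value of that gene.

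**Figure D2:**
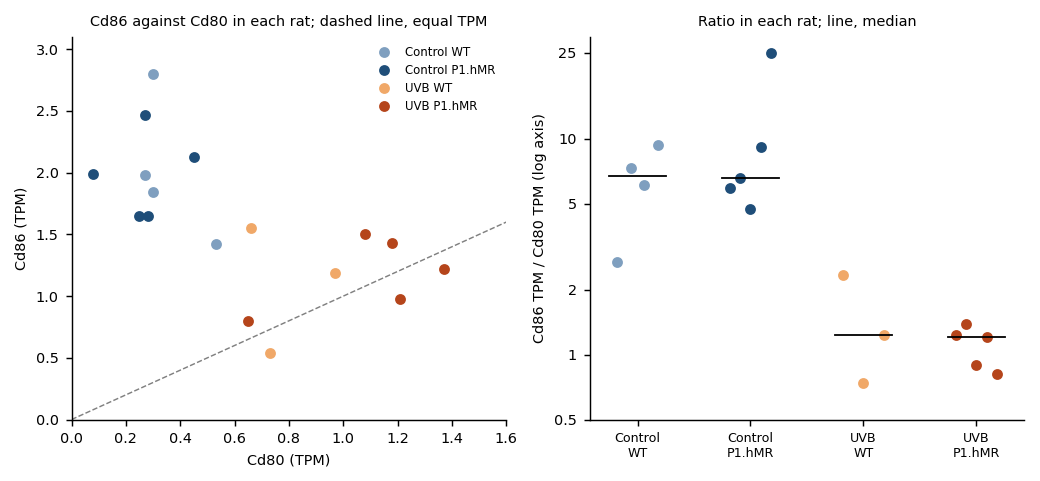
Cd86 against Cd80 in TPM in each rat (left, dashed line at equal levels) and the ratio of Cd86 to Cd80 TPM in each rat on a log axis (right, line at the group median). Control rats lie at ratios of 2.68 to 24.9 and UVB rats at 0.74 to 2.35.

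Flt3 encodes the receptor for FLT3 ligand, on which conventional and plasmacytoid dendritic cells depend. It was at 0.37, 0.79, 0.59 and 0.83 TPM in Control WT and at 0.84, 1.08, 0.74, 0.98 and 0.63 TPM in Control P1.hMR rats. After UVB it was at 1.63, 0.62 and 1.80 TPM in WT and at 2.06, 1.71, 1.59, 1.68 and 1.58 TPM in P1.hMR rats. UVB WT rat 2 lay within the control range, and the other 7 UVB rats were above all controls. The averaged log2 fold change was 0.52 (95% interval 0.30 to 0.74, limma adjusted p = 0.000818, exact permutation p = 0.000454), and the mean TPM was 2.08-fold higher in UVB rats. This averaged call sat close to the fold threshold, at 0.45 to 0.50 and no longer called without Control WT rat 1, Control P1.hMR rat 5, UVB WT rat 1 or 3, or UVB P1.hMR rat 1. In WT rats the value was 0.48 (SE 0.16, limma adjusted p = 0.0444), just under the fold threshold, and was called at 0.73 without UVB WT rat 2 and at 0.54 without Control WT rat 4. In P1.hMR rats it was 0.56 (SE 0.14, limma adjusted p = 0.00400). Flt3 rose and Cd207 fell in the same glands.

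Cd83 encodes a surface glycoprotein of mature dendritic cells that stabilizes CD86 and MHC class II at the membrane, and is induced in activated lymphocytes as well. It ranged from 1.93 to 4.30 TPM in control and from 1.25 to 2.43 TPM in UVB rats, with overlap in both genotypes. The averaged log2 fold change was -0.46 (95% interval -0.74 to -0.18, limma adjusted p = 0.00978, exact permutation p = 0.00408), a difference in the direction of Cd86 and of similar size.

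Itgax, Zbtb46 and Batf3 did not pass the test. Itgax encodes the integrin chain CD11c of dendritic cells and many macrophages and lay between 0.80 and 2.24 TPM, with an averaged log2 fold change of -0.17 (95% interval -0.39 to 0.05, limma adjusted p = 0.191). Zbtb46, a transcription factor of conventional dendritic cells and endothelium, lay between 0.64 and 1.37 TPM, with 0.11 (95% interval -0.06 to 0.28, limma adjusted p = 0.275). Beside it, 1 of 9 endothelial genes rose (Vwf, 0.63), where 4.6% of all genes did. Batf3, required for the cross-presenting dendritic cell lineage, ranged from 0 to 1.42 TPM, and its averaged change of 0.00 (95% interval -0.34 to 0.34, limma adjusted p = 0.985) had the widest interval of the 9. These intervals do not show that the 3 genes stayed at the same level.

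**Figure D3:**
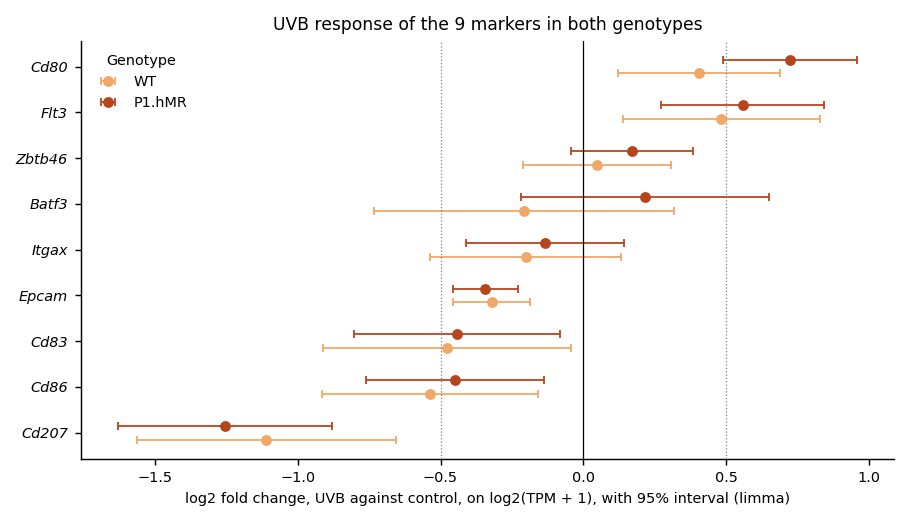
Log2 fold change of each marker between UVB and control (horizontal axis, on log2(TPM + 1), with 95% limma intervals) in WT and P1.hMR rats, with dotted lines at the fold threshold of 0.5 in each direction. Cd207 lies at -1.11 and -1.26, Cd80 and Flt3 lie above 0 in both genotypes, and the intervals of the 2 genotypes overlap for every marker.

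Genes of other leukocytes were measured beside the markers. The 10 pan-leukocyte genes, 9 of them tested, summed to between 114.5 and 184.7 TPM in control and between 125.7 and 213.7 TPM in UVB rats. Of the 9, 3 rose in the average (Tyrobp, Laptm5 and Fcer1g), beside 4.6% of all genes. None was called in WT and 2 in P1.hMR rats, where 3.92% and 5.05% of all genes were called higher. Of 13 macrophage and monocyte genes 8 rose and none fell, beside 4.6% and 4.88% of all genes. The largest rises were those of the scavenger receptor Cd163 (2.61), the mannose receptor Mrc1 (1.33) and the complement genes C1qb (1.30) and C1qc (1.03). The summed level of the macrophage and monocyte genes, 195 to 528 TPM in control and 238 to 467 TPM in UVB rats, overlapped. When each marker was expressed relative to the mean log2 level of the 10 pan-leukocyte genes in the same rat, the averaged difference of Cd207 was -1.39 (exact permutation p = 0.000113, the smallest the design allows), that of Cd86 -0.70 and that of Cd83 -0.67 (exact permutation p = 0.000113 for each). Itgax, which did not pass on its own, had a difference of -0.37 on this scale (exact permutation p = 0.000567), which was -0.17 and did not pass relative to Ptprc alone. Cd80 and Flt3 remained higher by 0.36 (exact permutation p = 0.0293) and 0.31 (exact permutation p = 0.00385). The pan-leukocyte mean itself was higher by 0.21 after UVB (exact permutation p = 0.121), and its part in the marker results was not tested beyond this scaling.

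Genes of Langerhans cell growth and upkeep were called about as often as all genes, 2 of 19 tested beside 9.48%. Il34, the epithelial ligand of CSF1R needed for Langerhans cell upkeep, was at 12.6 to 23.0 TPM in control and at 6.98 to 11.9 TPM in UVB rats, without overlap, and fell by 0.92 on the log2 scale (SE 0.13, limma adjusted p = 2.56e-05) in the average and in each genotype. Csf2rb, the common beta chain of the GM-CSF, IL-3 and IL-5 receptors, rose by 1.2 (SE 0.14, limma adjusted p = 5.74e-06), with 1.14 to 4.49 TPM in control rats and 5.45 to 9.30 TPM in UVB rats. Ccl20, the chemokine that draws Langerhans cell precursors, had 0.50 and Ahr, a receptor expressed in Langerhans cells, had -0.35, neither of them called.

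Among 17 tested genes of the conventional dendritic cell lineage, 1 rose and 1 fell, a share near the 9.48% of all genes called. Clec10a, a lectin of type 2 dendritic cells and of macrophages, rose by 1.10 (SE 0.14, limma adjusted p = 1.36e-05), with 5.29 to 10.2 TPM in control rats and 10.2 to 22.7 TPM in UVB rats, where the highest control met the lowest UVB rat. Ly75, the endocytic receptor DEC-205 of dendritic cells and also of epithelium, fell by 0.66 (SE 0.09, limma adjusted p = 1.90e-05), with 1.59 to 3.06 TPM in control and 0.74 to 1.43 TPM in UVB rats, without overlap. Cadm1 (-0.42) and Bcl6 (0.37) were under the fold threshold. None of 7 plasmacytoid dendritic cell genes and none of the 5 tested genes of MHC class II presentation was called. Among their largest averaged changes, Pacsin1 (-0.498, limma adjusted p = 0.0196), Tlr7 (0.36, limma adjusted p = 0.0113) and Ifi30 (0.26, limma adjusted p = 0.000729) passed the adjusted p and stayed under the fold threshold. Of these, Tlr7 reached 1 TPM only in UVB rats. Cd74, the invariant chain, had a value of -0.18 on the log2 scale. The class II list named 13 genes, of which 5 were among the deposited genes, and RT1 genes were not analysed.

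Of 19 tested genes of dendritic cell maturation and migration, 4 rose and 2 fell, beside 4.6% and 4.88% of all genes. Fscn1, the actin-bundling protein of mature dendritic cells that migrating epithelial cells express too, was at 7.90 to 12.5 TPM in control and at 35.0 to 63.7 TPM in UVB rats and rose by 2.19 on the log2 scale (SE 0.11, limma adjusted p = 2.95e-09). Il1b, which mobilizes Langerhans cells from epidermis, rose by 0.94 in the average (SE 0.19, limma adjusted p = 0.000899), with overlap between UVB and control rats. It was called in P1.hMR (1.35, limma adjusted p = 0.000479) and not in WT rats (0.53, limma adjusted p = 0.222). Ccl22, a chemokine made by dendritic cells and macrophages, fell by 1.00 (SE 0.10, limma adjusted p = 2.08e-06), with 2.31 to 4.56 TPM in control and 0.81 to 1.61 TPM in UVB rats. Cd274, which encodes PD-L1 and binds CD80 in cis, fell by 0.77 (SE 0.09, limma adjusted p = 9.02e-06), with 20.3 to 30.8 TPM in control and 11.8 to 17.8 TPM in UVB rats, and was the 1 called gene of the 4 tested among the receptors and relatives of CD80 and CD86. The list thus held genes that moved both ways, as the 9 markers did.

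**Figure D4:**
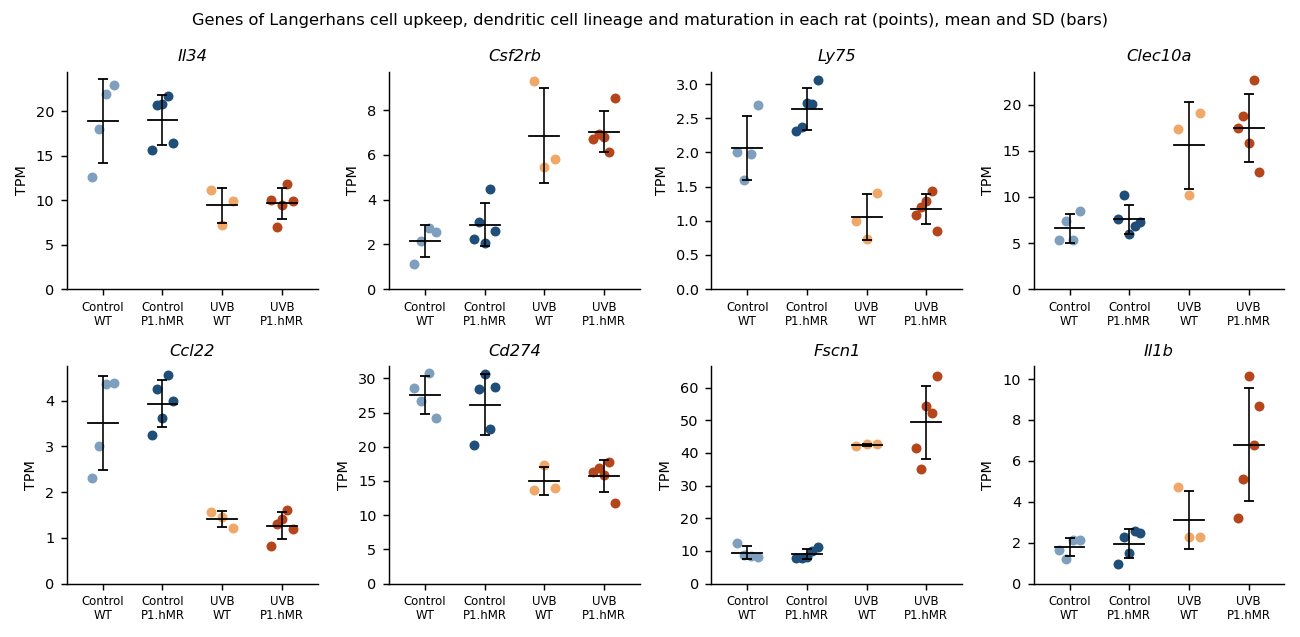
Level in TPM (vertical axis, from 0) of 8 genes of Langerhans cell upkeep, dendritic cell lineage and maturation in each rat (points) of the 4 groups, with mean (line) and SD (bars). Il34, Ly75, Ccl22 and Cd274 lie lower and Csf2rb and Fscn1 higher in all UVB rats than in any control rat.

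MR overexpression moved none of the 9 markers past the threshold. Under UVB, P1.hMR and WT rats differed by -0.08 (Epcam) to 0.60 (Batf3) on the log2 scale, with no marker called where 0.0229% of all genes were called, and 1 marker at an unadjusted limma p under 0.05. Without UVB the differences ran from -0.18 (Zbtb46) to 0.19 (Cd207), with no marker called, none at an unadjusted p under 0.05, and 0.00763% of all genes called. The 1 gene called without UVB was the human transgene itself, which was also among the 3 genes called under UVB. The interaction of genotype and UVB ran from -0.15 (Cd207) to 0.42 (Batf3), and 0 of 13105 genes were called by limma, with 907 at an unadjusted p under 0.05 and none of the 9 markers among them. The 95% interval of the interaction for Cd207 was -0.73 to 0.44 and that for Flt3 was -0.37 to 0.52, both wide beside the averaged UVB changes of Cd80, Flt3, Cd86 and Cd83.

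Batf3 is described because its genotype difference was the widest of the 9 under UVB, although it passed the filter only through P1.hMR rats. It was at 0, 0.16 and 0.34 TPM in UVB WT and at 0.74, 1.13, 1.04, 0.65 and 0.36 TPM in UVB P1.hMR rats, so the groups did not overlap, as for 1.73% of all tested genes in that direction. The difference of 0.60 (95% interval 0.10 to 1.11) gave an exact permutation p of 0.0357 and a limma adjusted p of 0.392 (0.438 without a filter), and so failed the correction, and on the TPM scale the exact permutation p was 0.0536. In control rats Batf3 was at 0.20, 0.61, 0.37 and 0.21 TPM in WT and at 0.51, 0.16, 1.42, 0.89 and 0 TPM in P1.hMR, with full overlap. Flt3 averaged 0.21 higher in P1.hMR rats over both treatments (exact permutation p = 0.0461, limma adjusted p = 0.669), which failed the correction as well and gave an exact permutation p of 0.0598 on the TPM scale.

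Rat-to-rat variation within groups was described by the correlation of deviations from each group's mean over the 17 rats, which share dissection and library as sources of variation. Cd207 was most like Crlf3 (r = 0.89), Cftr (0.86) and Tcf7l1 (0.86), and Flt3 was most like Pld4 (0.97), Csnk1g1 (0.90) and Arl13b (0.89). Epcam was most like Armc2 (0.88), P2ry12 (0.86) and Kif18a (0.85), and Cd80 was most like Eapp (0.85), Ube2z (0.79) and Utp3 (0.79). Of the pairs within the 9, Itgax and Cd83 deviated together most closely (r = 0.82).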

How the data were processed

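MG RNA was sequenced from 17 rats. The authors' methods give FastQC, STAR, the rat genome rn7 and RSEM, whereas the deposited processing notes name FastQC, Trimmomatic, DRAGEN and Picard with rn7. The values deposited by the authors are TPM with 2 decimals, 1 column per rat, and were used as log2(TPM + 1). TPM keeps no depth, so the depth is unknown and precision comes from the spread between rats. The labels number 1 library per animal within each group, and the study's methods count its UVB animals by eyes, so each library was taken as 1 rat.

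Genes reaching 1 TPM in 3 or more rats (13105) were fitted in R 4.3.3 with limma 3.58.1, with 4 group means and a variance trend, tested on simulated data first. Exact permutation tests were two-sided, unadjusted and run for 9 markers in 7 comparisons with Python 3.11.15, numpy 2.4.6, scipy 1.17.1 and pandas 2.3.3, and figures with matplotlib 3.10.9. Genes named beside the 9 were the transgene, the up to 4 genes per list with the largest averaged UVB change, and the 3 genes most like Cd207, Epcam, Cd80 and Flt3. The markers and lists were chosen with earlier results of these data known. Alternatives were another pseudocount, filters, normalizations, sample weights, a replicate block, fold thresholds, fits of 2 groups, Ptprc as the only leukocyte gene, and each rat left out. RT1 genes were not analysed here. Promoter sequences are from RefSeq (GRCr8), and no rn7 genome was used here.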

Additional observations from a re-analysis of the deposited data

Results flagged for a closer look

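Of 27 groups of markers with 4 or 5 rats, 3 held a rat far from the others by Dixon's test, where chance gives about 1 in 20. Epcam was at 332.34 TPM in Control WT rat 1, below the 3 other rats of its group at 381 to 387 TPM. Cd80 was at 0.53 TPM in the same rat, above the others of its group at 0.27 to 0.30 TPM. Flt3 was at 2.06 TPM in UVB P1.hMR rat 1, above the others of its group at 1.58 to 1.71 TPM. None of these 3 values, which came from 2 rats, lay in the range of the other treatment.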

How the results depend on the processing

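Cd207 kept its direction and its call for UVB in both genotypes under every alternative, with log2 fold changes from -1.34 to -0.94, and Epcam ranged from -0.40 to -0.29. Cd80, Flt3, Cd86, Cd83 and Itgax also kept their direction for UVB, but the sizes moved. Averaged over genotypes they ran from 0.53 to 1.38 for Cd80, 0.45 to 0.92 for Flt3, -0.80 to -0.39 for Cd86, -0.64 to -0.38 for Cd83 and -0.27 to -0.11 for Itgax, each farthest from 0 at a pseudocount of 0.1. The number of markers called in P1.hMR rats and in the average was 5 with a pseudocount of 0.1, 6 with no fold change threshold, and 1 with a mean of at least 5 TPM or a log2 fold change of at least 1. In WT rats it was 5 with no fold change threshold and 1 with no filter, a mean of at least 5 TPM, a log2 fold change of at least 1, only the 2 groups compared, or a replicate block, and 1 to 2 with each rat left out. The averaged value of Cd86 passed the fold threshold, at -0.57 to -0.50, without Control WT rat 1 or 3, Control P1.hMR rat 1 or 2, UVB WT rat 1 or 3, or UVB P1.hMR rat 2 or 4, and that of Cd83, at -0.53 to -0.51, without Control WT rat 1, Control P1.hMR rat 3 or UVB WT rat 1. The averaged UVB value of Batf3, close to 0, reversed to -0.040 with a pseudocount of 0.1, -0.0036 with quantile normalization, -0.024 with sample weights and -0.0047 with the replicate block, and ran from -0.071 to 0.057 with each rat left out. Relative to Ptprc alone Zbtb46 reversed to 0.022 in WT, 0.20 in P1.hMR and 0.11 averaged, and Batf3 to 0.25 in P1.hMR and 0.0063 averaged. The other reversals were of values that were not called. Cd86 without UVB was 0.0012 with a pseudocount of 0.1 and 0.011 with the replicate block, Cd86 averaged -0.0016 with sample weights, and Cd207 under UVB -0.021 with sample weights and -0.019 with the replicate block. The interaction was 0.0016 for Epcam with median-of-ratios scaling, -0.057 for Cd83 with the replicate block, and p = 0.972 for Cd83 by exact permutation on the TPM scale. With each rat left out, Zbtb46 for UVB in WT ran from -0.010 to 0.12, Cd207 under UVB from -0.073 to 0.12, and Cd86 from -0.12 to 0.24 under UVB, -0.10 to 0.11 without UVB and -0.064 to 0.12 averaged. The interaction ran from -0.31 to 0.016 for Cd207, -0.13 to 0.17 for Cd83, -0.12 to 0.24 for Cd86, -0.052 to 0.030 for Epcam, -0.17 to 0.22 for Flt3 and -0.052 to 0.15 for Itgax. The cause of these shifts was not tested.

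No pairing of rats by replicate number was seen: deviations of same-numbered rats correlated at -0.19 to 0.24 (median -0.01, 22 pairs, 4 over 0.1). Pairs with another number lay at -0.26 to 0.18 (median 0.01, 85 pairs, 14 over 0.1). The block took all called genes from 1036 to 1019 in WT, from 1410 to 1400 in P1.hMR rats and from 1243 to 1251 in the average. Between P1.hMR and WT under UVB it took them from 3 to 1. Depth is unknown, and for markers near 1 TPM the 2 decimals and the pseudocount limit the values.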

Other observations

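The remaining lists of other cell types were read beside the 9.48% of all tested genes called in the averaged UVB comparison. Of 4 tested neutrophil genes 3 rose, Csf3r (1.05), Mmp9 (0.74) and S100a9 (0.52), and S100a8 (0.25) was not called. S100a9 was at 307 to 417 TPM in control rats. The study stained its protein in human eyelid epithelium, so it does not mark neutrophils alone. Of 10 listed neutrophil genes 8 had a mean under 1 TPM. Of 4 tested T cell genes 1 rose, Cd8a. It encodes a chain of the CD8 coreceptor that some dendritic and other myeloid cells of rodents also carry. The other 3 tested T cell genes were lower and not called, Cd247 by 0.36 (limma adjusted p = 0.0152), Cd3e by 0.29 and Cd3g by 0.08. The neutrophil genes Csf3r and Mmp9, and Cd8a, passed the filter only through UVB rats. Their highest control values were 0.40, 0.42 and 0.64 TPM, in that order. Cd8a rose by 1.07 on the log2 scale among WT and by 1.84 among P1.hMR rats (1.45 averaged), and was 1 of the 3 genes called between P1.hMR and WT under UVB (0.89, limma adjusted p = 0.0364), while its interaction was not called (0.77, limma adjusted p = 0.704). With the replicate block only 1 gene was called between P1.hMR and WT under UVB. The 1 tested B cell gene was not called, and all 8 B cell genes had a mean under 1 TPM. Of 9 epidermal genes 1 fell, the cornified envelope precursor Ivl (-1.31), of 12 meibomian gland genes 2 rose and 2 fell, and of 9 muscle genes 2 fell.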
